A study of Homo sapiens with 22 samples.

Results

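Lost promoter H3K27ac regions were merged intervals of acetylated histone H3 lysine 27 (H3K27ac) that both control lists held, that neither list after FLI1 knockdown held, and whose centre lay within 1 kb of an annotated transcription start site (TSS). There were 467 of them among 21378 promoter-centred regions (2.18%) and among 90572 merged H3K27ac regions in all. They lay at 447 genes by identifier (444 by symbol, since a few small RNA and pseudogene identifiers share one), 20 of which had 2 such regions each, CXCR4, HK2 and ASF1B among them. The regions were chosen by their presence in the H3K27ac lists, so their presence in the siNEG lists and absence from the siFLI1 lists are not findings. The series comprised 22 samples of TC-32, an established Ewing sarcoma line that carries the fusion oncoprotein EWSR1::FLI1, and it asked how the fusion regulates the transcription factor ETS1. The control group had received 20 nM of the non-targeting siRNA siNEG, and the knockdown group 20 nM of siFLI1, an siRNA against the FLI1 part of the fusion. Both groups shared the cell line, the reverse transfection and the crosslinking for 10 min, and 1 line stands here for the tumour type. Each group had 2 libraries each for H3K27ac, for trimethylated H3 lysine 4 (H3K4me3) and for ETS1, plus 1 H3K27ac library labelled ab4729. The labels do not say that the replicates came from separate cultures, so every spread given is that between libraries and may be technical. The depth of knockdown was not analysed here, because peak lists hold no measure of the fusion protein.

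H3K27ac is placed by the acetyltransferases p300 and CBP and marks active promoters and enhancers. H3K4me3 is placed by SET1 and MLL complexes at the start of genes and is commonest at promoters rich in CpG dinucleotides, whereas active enhancers carry H3K27ac with little H3K4me3. EWSR1::FLI1 joins the activation domain of EWSR1 to the ETS DNA-binding domain of FLI1. It binds runs of the tetranucleotide GGAA, where it recruits acetyltransferases and opens enhancers, and it also binds single ETS motifs at promoters.

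GGAA runs near 6 lost regions of protein-coding genes are shown, out of 17 regions with such a run, because GGAA repeats are the sequence to which the fusion is known to bind. The longest runs, of 16 units, lay at 3 long non-coding RNA genes and are not printed. They are read from hg38 on the plus strand, 5′ to 3′, with 20 bases on each side and the uninterrupted run in capitals, so that TTCC is GGAA on the other strand.
GUCY2F, chrX:109481026-109481125: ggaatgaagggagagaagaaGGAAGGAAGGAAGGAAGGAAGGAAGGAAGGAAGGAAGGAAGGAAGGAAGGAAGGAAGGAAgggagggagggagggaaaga
C5, chr9:121018725-121018820: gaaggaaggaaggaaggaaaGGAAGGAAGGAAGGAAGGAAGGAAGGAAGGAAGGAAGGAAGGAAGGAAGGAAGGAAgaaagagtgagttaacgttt
CCK, chr3:42266817-42266908: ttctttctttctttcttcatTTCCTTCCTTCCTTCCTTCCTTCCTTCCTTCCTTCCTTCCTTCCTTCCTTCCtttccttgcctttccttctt
GLYAT, chr11:58728873-58728964: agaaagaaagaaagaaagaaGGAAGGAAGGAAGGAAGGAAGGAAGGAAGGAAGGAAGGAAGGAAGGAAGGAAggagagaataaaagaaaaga
ADGRF3, chr2:26319548-26319635: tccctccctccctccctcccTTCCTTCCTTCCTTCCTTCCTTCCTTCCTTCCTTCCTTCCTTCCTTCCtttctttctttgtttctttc
USP13, chr3:179745475-179745534: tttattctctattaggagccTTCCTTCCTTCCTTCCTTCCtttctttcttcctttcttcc
GUCY2F carried 15 units, C5 14, CCK and GLYAT 13, ADGRF3 12 and USP13 5. Of the printed runs, the one at ADGRF3 reached into the region itself, and the other 5 lay beyond its edge but within 1 kb of its centre. The CCK region also held a shorter run, of 9 units, inside it.

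The middle 121 bases of 6 lost regions are shown next, with every CG in capitals, because CpG content differed between the regions that carry H3K4me3 and those without it. The first 3 kept an H3K4me3 peak in all 4 libraries, and the last 3 had none in any.
TIMP2, chr17:78925596-78925716: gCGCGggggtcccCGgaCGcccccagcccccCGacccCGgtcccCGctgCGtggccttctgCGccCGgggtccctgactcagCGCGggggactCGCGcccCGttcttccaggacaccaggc
RAB8A, chr19:16111229-16111349: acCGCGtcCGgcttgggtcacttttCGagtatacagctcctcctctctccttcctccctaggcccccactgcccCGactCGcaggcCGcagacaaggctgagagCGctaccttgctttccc
TMEM154, chr4:152680414-152680534: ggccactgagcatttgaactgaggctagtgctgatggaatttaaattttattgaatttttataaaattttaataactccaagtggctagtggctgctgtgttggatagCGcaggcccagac
USP13, chr3:179744697-179744817: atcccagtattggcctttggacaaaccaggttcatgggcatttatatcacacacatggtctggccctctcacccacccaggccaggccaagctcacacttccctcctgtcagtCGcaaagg
GUCY2F, chrX:109481258-109481378: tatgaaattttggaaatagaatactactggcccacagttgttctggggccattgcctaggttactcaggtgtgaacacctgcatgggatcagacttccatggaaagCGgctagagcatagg
KIF5A, chr12:57579932-57580052: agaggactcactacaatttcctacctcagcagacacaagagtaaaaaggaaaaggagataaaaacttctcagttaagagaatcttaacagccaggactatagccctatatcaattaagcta
TIMP2 showed 15 CG in this stretch, RAB8A 8 and TMEM154 1. USP13 and GUCY2F showed 1 each, and KIF5A 0. TMEM154 therefore carried H3K4me3 with as few CG as the regions without it.

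In control cells the lost regions had lower H3K27ac folds than promoter regions in general. Their folds were close to those of a typical peak of the same list. Because the rule used these lists, both statements are descriptions and not findings. The fold enrichment that the authors' peak caller gave them, a peak's height over its local background, had a median of 4.31 in siNEG replicate 1, with a range of 2.25 to 11.3. In siNEG replicate 2 the median was 4.12 and the range 2.1 to 10.5. Promoter regions held by all 4 lists (9239) had medians of 8.80 and 6.78 in the same libraries, all promoter regions 6.39 and 5.46, and all peaks of the 2 siNEG lists 4.56 and 4.33. Gained promoters, held by both siFLI1 lists and by no siNEG list (1446), were like the lost ones, with medians of 4.56 and 4.65 in the siFLI1 libraries. The median width of a lost region was 661 bp, against 680 bp for gained promoters and 1910 bp for promoters in all 4 lists. A region that any siFLI1 peak touched could not be lost, which works against wide regions. The value of a region is its highest overlapping fold, which favours wide ones, so widths and folds only describe the sets. Near the distance limit of the rule, the 5 regions just inside the distance limit, at CDC42, MACF1, ENSG00000285483, PTCD1 and ELP3 (988 to 998 bp from a TSS), had lower siNEG folds of 2.71 to 4.04. The 5 just outside it, at SLAMF8, ENSG00000232056, ARL6IP1P1, PLEKHA4 and RNF217 (1003 to 1011 bp), had lower folds of 2.81 to 3.55. The number of lost regions depended on each library. Without siNEG replicate 1 or replicate 2 the same rule gave 2177 or 2201 regions in place of 467, and without siFLI1 replicate 1 or replicate 2 it gave 866 or 778.

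**Figure D1:**
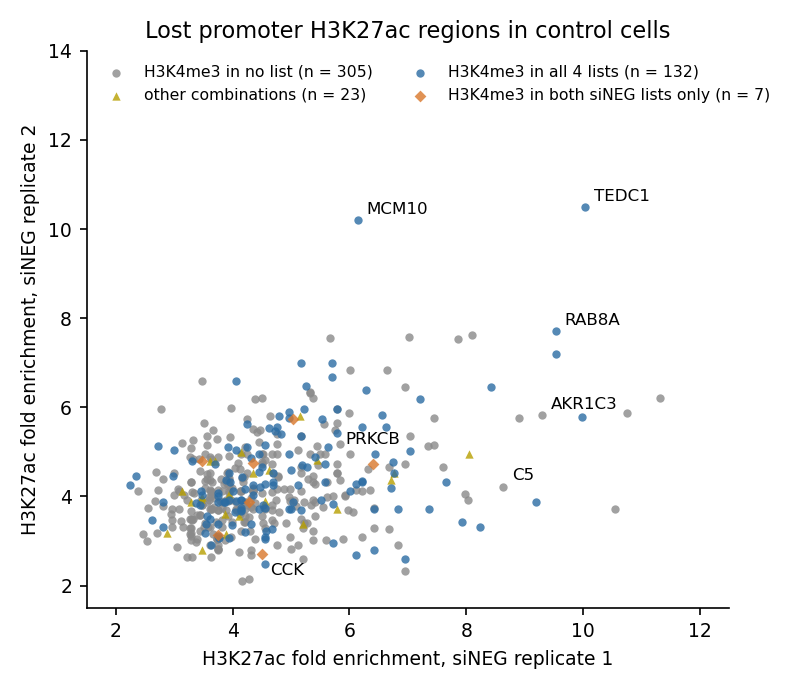
H3K27ac fold enrichment of the 467 lost promoter regions in siNEG replicate 1 (x axis) and siNEG replicate 2 (y axis), 1 point per region, with colour and shape for the H3K4me3 lists that overlap it. Most points lie near the medians of 4.31 and 4.12, and TEDC1, with 10.0 and 10.5, is the highest on the lower of its 2 values.

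The highest region by the lower of its 2 siNEG values lay in a coding exon of TEDC1, which encodes a subunit of a tubulin complex needed for stable centrioles (chr14:105491211-105491748, folds 10.0 and 10.5). A siFLI1 H3K27ac peak lay 568 bp from it, and its TSS lay within 1 kb of a region that both siFLI1 lists held. RAB8A, a small GTPase of vesicle transport, followed with 9.54 and 7.71 at a region centred 600 bp upstream of its TSS (chr19:16110823-16111756). GGACT, an enzyme that breaks down crosslinked peptides, had 9.53 and 7.21 at chr13:100588164-100589479, centred in an intron. TMEM154 (chr4:152679429-152681520, outside genes) reached 8.42 and 6.46 with the nearest siFLI1 H3K27ac peak at a distance of 87849 bp. MCM10, a factor needed to start DNA replication, had 6.15 and 10.2 in an intron (chr10:13161528-13162395), and its nearest siFLI1 peak was 53532 bp away. TIMP2, an inhibitor of matrix metalloproteinases, had 7.21 and 6.18 (chr17:78925396-78925917, outside genes), but a siFLI1 peak lay only 34 bp from it. KIF5A, the heavy chain of a neuronal kinesin, had 2 lost regions, the stronger of which had 6.0 and 6.83 in an intron (chr12:57579274-57580710). Among the 15 highest there were also 4 long non-coding RNA genes and 1 processed pseudogene, led by ENSG00000258342 with 8.10 and 7.62. The RNA genes ENSG00000287187 and ENSG00000289915 had 7.85 and 7.53, and 5.99 and 5.86, and the pseudogene ENSG00000259136 had 6.63 and 6.85.

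Loss of a region did not always leave its promoter without acetylation. A siFLI1 H3K27ac peak lay within 500 bp of 135 lost regions (28.9%) and within 1 kb of 187 (40.0%), and the median distance was 2564 bp. For 107 regions (22.9%) the very same TSS lay within 1 kb of another region that both siFLI1 lists held. The gene kept H3K27ac of both siFLI1 lists at any of its TSSs in 249 cases (53.3%), and among protein-coding genes in 211 of 315 (67.0%). These shares were not computed for other promoter regions. By a different measure, 8164 of the 13363 gene symbols nearest to a promoter region had a region in all 4 lists. RAB8A and ZMYND19 kept H3K27ac at a TSS, with siFLI1 peaks 152 and 210 bp from the lost region. CXCR4, a chemokine receptor chosen after its values were seen, is an opposite case. The nearest siFLI1 peaks lay 39199 and 38031 bp from its 2 regions, whose siNEG folds were 3.96 and 4.32 for the one and 3.94 and 4.51 for the other. Peak lists give no value below the caller's limit, so a weakened region and one without the mark cannot be told apart. Fewer cells carrying the mark and less mark per cell cannot be told apart either, since each library averages over many cells.

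**Figure D2:**
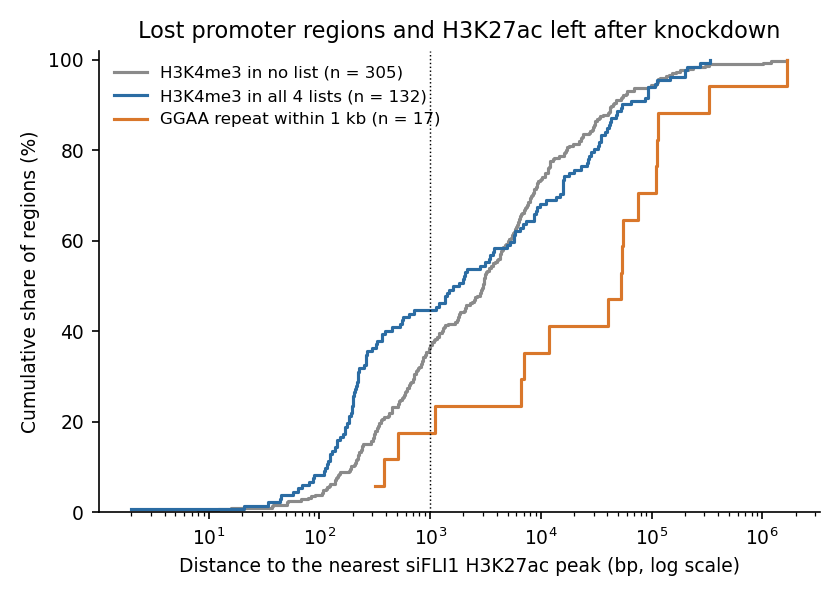
Cumulative share of lost promoter regions (y axis, %) by distance to the nearest siFLI1 H3K27ac peak (x axis, bp, log scale), for regions without H3K4me3, regions with H3K4me3 in all 4 lists, and the 17 regions with a GGAA repeat within 1 kb of their centre. The dotted line marks 1000 bp, by which 37.0%, 44.7% and 17.6% of the 3 sets had been reached.

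The share of lost regions at the 5′ end of a gene was near that of gained promoters. The nearest TSS lay within 1 kb of the 5′ end of its gene for 232 regions (49.7%), against 51.8% of gained promoters, 56.5% of all promoter regions and 70.8% of promoters in all 4 lists. It did so for 114 of the 315 protein-coding ones (36.2%), against 38.6% of gained, 48.2% of all and 66.8% of retained protein-coding promoter regions. The centre lay in an intron for 253 regions (54.2%, against 53.3% of all promoter regions), in a non-coding exon for 73 (15.6%), outside genes for 58 (12.4%), in a UTR for 44 (9.42%) and in a coding exon for 39 (8.35%). The UTR share was 13.95% over all promoter regions, 18.4% at promoters in all 4 lists and 10.2% at gained promoters. Protein-coding genes were nearest to 315 regions (67.5%, exact 95% binomial interval 63.0% to 71.7%), long non-coding RNAs to 108 (23.1%) and other types to 44 (9.42%). The protein-coding share was 77.3% over all promoter regions, 80.7% in promoters held by all 4 lists and 69.8% in gained promoters, and the long non-coding share over all promoter regions was 16.5%. All such intervals cover counting error over regions only.

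H3K4me3, which the rule did not use, divided the lost regions into 2 large sets. No H3K4me3 peak of any library touched 305 of them (65.3%), and peaks of all 4 libraries touched 132 (28.3%). The shares were 40.8% and 54.1% over all promoter regions, and 58.8% and 36.9% at gained promoters, which lie closer to the lost ones. Where both siNEG H3K4me3 lists held a peak (144 regions), both siFLI1 lists also held one at 132 (91.7%, interval 85.9% to 95.6%), and 1 or both at 137 (95.1%). The mark therefore stayed at most lost promoters that had it. The share kept in both siFLI1 lists was 99.0% at promoters in all 4 H3K27ac lists (7425 of 7503), 97.8% at gained promoters and 96.9% over all promoter regions. Of the other lost regions, 7 had the mark in both siNEG lists only (1.5%, against 0.791% of all promoter regions), and 0 had it in both siFLI1 lists only (0.482% of all promoter regions did). The remaining 23 had mixed combinations.

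By library, an H3K4me3 peak overlapped 32.5% and 32.3% of the lost regions in the siNEG replicates and 30.0% and 30.8% in the siFLI1 replicates. The 2 groups did not overlap, and the mean was 32.4% ± 0.151 (SD, n = 2) in siNEG and 30.4% ± 0.606 (SD, n = 2) in siFLI1. The difference of -2.03 percentage points had an exact two-sided permutation p of 0.33, the smallest that 2 libraries against 2 allow. At promoters in all 4 H3K27ac lists the shares were 81.8% and 82.0% in siNEG and again 81.8% and 82.0% in siFLI1, a difference of 0.0216 points (exact permutation p of 1). Gained promoters had 38.4% and 39.1% in siNEG and 38.9% and 39.6% in siFLI1, a difference of 0.484 points. All promoter regions had 56.7% and 57.2% in siNEG and 56.1% and 56.4% in siFLI1, also without overlap, a difference of -0.706 points (exact permutation p 0.33), so a non-overlapping decrease was not particular to the lost regions. The change at the lost regions minus that at promoters in all 4 lists was -2.06 points (exact permutation p 0.33). When a peak within 1 kb was counted in place of an overlapping one, the change at the lost regions was -0.749 points and that relative to the other promoters -0.858 (exact permutation p 0.67 for each). With TSSs within 500 bp the values were -0.965 and -1.03 (p 0.33 for each, same exact test).

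**Figure D3:**
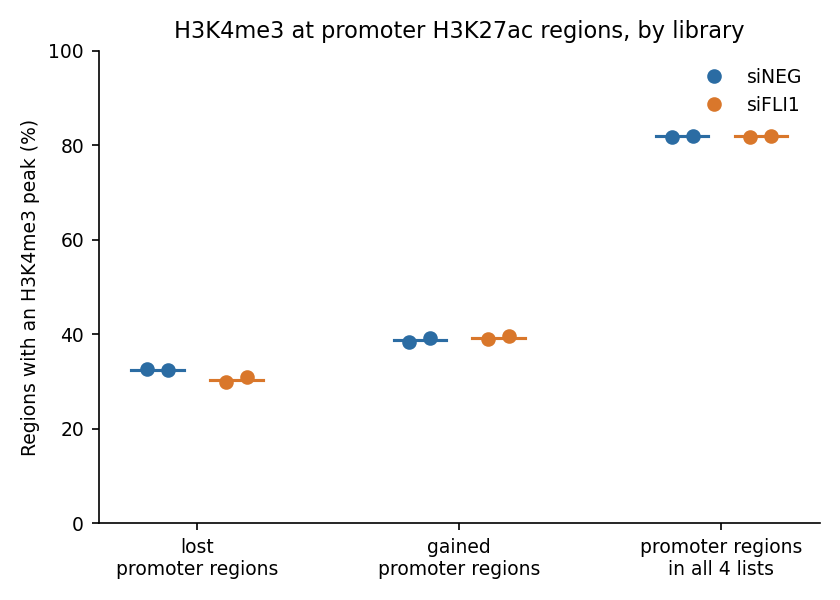
Share of promoter H3K27ac regions with an overlapping H3K4me3 peak (y axis, %) in lost, gained and retained promoter regions, with 1 point per library and a line at the mean of each group. The lost regions lie at 30.0% to 32.5%, gained promoters at 38.4% to 39.6% and promoters in all 4 lists at 81.8% to 82.0%, and at the lost regions siFLI1 lies slightly below siNEG.

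Regions with and without H3K4me3 differed in sequence and in gene type. Observed over expected CpG, counted in 501 bp at the centre, had a median of 0.705 in the 132 regions with H3K4me3 in all 4 lists and of 0.230 in the 305 without it. A ratio above 0.6 was found in 84 of the 132 (63.6%, interval 54.8% to 71.8%) and in 6 of the 305 (1.97%, interval 0.725% to 4.23%), while promoters in all 4 H3K27ac lists had a median of 0.639 and 54.2% above 0.6. The median GC content was 60.7% and 45.7% in the 2 sets. Protein-coding genes made up 112 of the 132 (84.8%) and 177 of the 305 (58.0%), and the TSS lay within 1 kb of the gene's 5′ end in 70.5% and 41.0%. The 305 lay far from the mark, with a median of 24611 bp to the nearest H3K4me3 peak of any library and with only 24 (7.87%) within 1 kb. Among long non-coding RNAs 89 of 108 (82.4%) had no H3K4me3. The single ETS motif CCGGAA, or TTCCGG on the other strand, which shares its GGAA with a repeat unit, occurred in the 501 bp of 19.7% of the 132 and 7.21% of the 305, against 23.7% of promoters in all 4 lists, 16.5% of all promoter regions and 13.5% of gained promoters. Regions were not treated as replicates, and these shares carry no test.

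**Figure D4:**
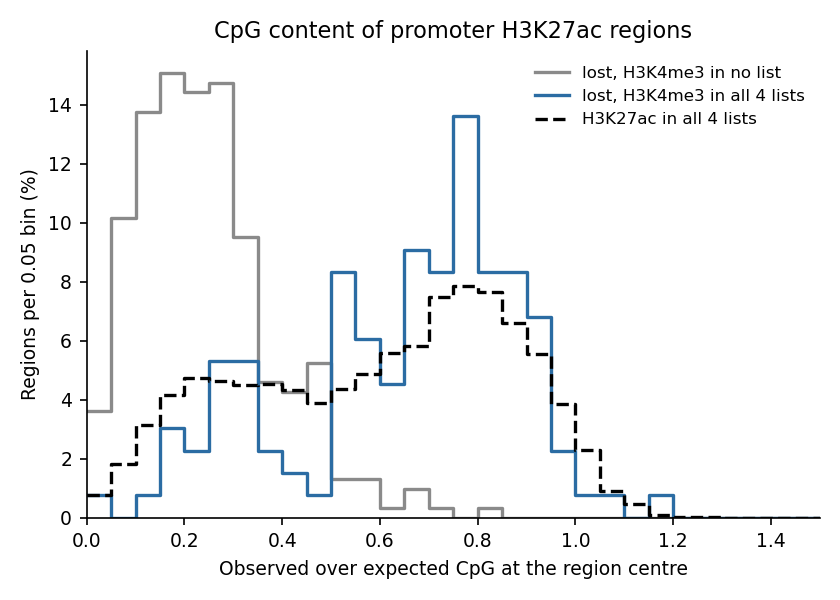
Distribution of the observed over expected CpG ratio (x axis, 501 bp at the centre) as the share of regions per bin of 0.05 (y axis, %), for lost regions without H3K4me3, lost regions with it in all 4 lists, and promoters with H3K27ac in all 4 lists. Lost regions without H3K4me3 crowd around their median of 0.230, and those with it around 0.705.

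Uninterrupted GGAA runs, or TTCC on the other strand, with 4 units or more lay within 1 kb of the centre of 17 lost regions (3.64%, interval 2.13% to 5.76%). The share was 0.692% in all 21378 promoter regions, 0.563% in promoters held by all 4 lists (52 of 9239) and 0.692% in gained promoters (10 of 1446). Inside the region itself the order was not the same: such a run lay in 3 lost regions (0.642%), in 0.472% of all promoter regions, in 0.207% of gained promoters (3 of 1446) and in 0.823% of promoters in all 4 lists, whose regions are wider. The runs held 5 to 16 units, and 2 pairs of neighbouring regions, at GUCY2F and at ENSG00000258342, shared a repeat, so the 17 regions lay at 15 genes. H3K4me3 was in no list at 16 of the 17, and CCK was the other. Of the 132 regions with H3K4me3 in all 4 lists, 0 had such a run, for which a floor of 3 counts allows a share of up to 2.27% and the exact interval one of up to 2.76%. The median distance of the 17 to a siFLI1 H3K27ac peak was 52927 bp.

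GUCY2F, a guanylate cyclase of the retina, had the highest siNEG replicate 1 value of all lost regions, 11.3, and 6.20 in replicate 2, at an intronic region (chrX:109481111-109481525). Its second region, centred in a UTR (chrX:109481717-109482397), had 4.28 and 2.15. C5, the complement protein, had 8.64 and 4.22 in a non-coding exon 50 bp downstream of a TSS (chr9:121017816-121018557). GLYAT, which conjugates glycine to acyl groups, had 4.45 and 5.21 in an intron (chr11:58727408-58728696). ADGRF3, an adhesion G protein-coupled receptor, had 5.00 and 2.83 (chr2:26318597-26319622). USP13, a deubiquitinase, had 6.95 and 6.46 (chr3:179744275-179745239), with a siFLI1 peak 385 bp away. None of these had H3K4me3 in any library. The 2 siNEG values of GUCY2F, C5 and ADGRF3 lay far apart, whereas those of USP13 and GLYAT were close. Among the non-coding genes with long runs, ENSG00000267349 had 6.41 and 3.74, ENSG00000235726 5.61 and 3.997, ENSG00000235271 7.01 and 7.59, RNU7-82P 4.53 and 4.94 and LINC02079 5.54 and 3.77. The others with a repeat were PNMA8C, which is protein-coding and had a siFLI1 peak 319 bp away, ENSG00000258342 and the pseudogenes RBM22P7 and ANKRD26P3.

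At the 132 regions that kept H3K4me3 the deposited fold of the overlapping H3K4me3 peak was lower after knockdown relative to other promoters. The median fold was 38.7 and 41.0 in the siNEG libraries and 32.2 and 30.7 in the siFLI1 libraries. The 7425 promoters with H3K27ac and H3K4me3 in all lists had medians of 50.5 and 53.3 in siNEG and 51.9 in each siFLI1 library. Ranked among these promoters within each library, the median lost region stood at percentile 30.1 and 29.3 in siNEG and at 18.7 and 16.2 in siFLI1. The means were 29.7 ± 0.529 and 17.4 ± 1.75 (SD, n = 2 each), a difference of -12.2 percentile points, given as a description. For the 73 of these regions with no siFLI1 H3K27ac peak within 1 kb the medians were 19.9 and 19.0 in siNEG and 12.4 and 12.6 in siFLI1, a smaller difference of -6.91. Both siFLI1 folds lay below both siNEG folds at 58 of the 132 (43.9%), against 17.7% of the 7425 promoters, and above both at 27 (20.5%), against 23.3%. A wide H3K4me3 peak can have its summit outside the lost region, so these folds belong to the peak, and neighbouring regions can share one.

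**Figure D5:**
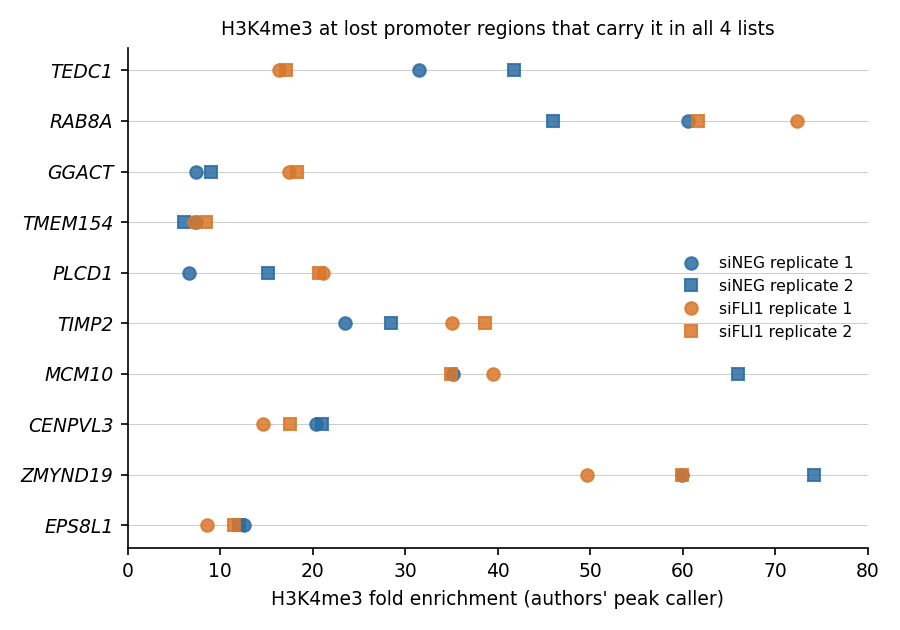
H3K4me3 fold enrichment (x axis) of the peak at the 10 protein-coding genes with the strongest lost H3K27ac among regions with H3K4me3 in all 4 lists, 1 point per library. TEDC1, CENPVL3, EPS8L1 and ZMYND19 have both siFLI1 points below both siNEG points, and GGACT, PLCD1, TIMP2 and RAB8A have them above. The groups of EPS8L1, ZMYND19 and RAB8A nearly touch.

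Single genes differed in both directions, without a test for any of them. TEDC1 had H3K4me3 folds of 31.5 and 41.8 in siNEG and 16.3 and 17.1 in siFLI1, with no overlap between the groups. CXCR4 had 56.6 and 77.1 in siNEG and 35.4 and 29.4 in siFLI1, again without overlap, and the same H3K4me3 peak of each library gave both of its regions their value. CENPVL3, a gene similar to that of centromere protein V, had 20.3 and 21.0 in siNEG and 14.6 and 17.5 in siFLI1. In the opposite direction TIMP2 had 23.5 and 28.5 in siNEG and 35.1 and 38.6 in siFLI1. PLCD1, a phospholipase C, had 6.63 and 15.1 in siNEG and 21.1 and 20.7 in siFLI1. GGACT had 7.39 and 8.996 in siNEG and 17.5 and 18.3 in siFLI1. Both siFLI1 folds of the peaks at these 3 genes lay above both siNEG folds. The median fold over all H3K4me3 peaks was also higher in the siFLI1 lists (24.9 and 24.8) than in the siNEG lists (20.1 and 17.8). For TIMP2 a siFLI1 H3K27ac peak lay 34 bp away, and TIMP2 and GGACT were in both ab4729 lists, GGACT with 7.10 in siNEG and 4.58 in siFLI1. RAB8A had 60.6 and 45.9 in siNEG and 72.3 and 61.7 in siFLI1, so its siFLI1 folds also lay above. ZMYND19 had 59.9 and 74.2 in siNEG and 49.6 and 59.9 in siFLI1. The groups of both genes nearly touched. MCM10 had 35.2 and 66.0 in siNEG and 39.4 and 34.9 in siFLI1, which overlap. TMEM154 had 7.32 and 6.05 in siNEG and 7.11 and 8.46 in siFLI1, which overlap. EPS8L1, an adaptor related to the actin regulator EPS8, had 12.6 and 12.0 in siNEG and 8.57 and 11.5 in siFLI1. Its groups did not overlap but nearly touched.

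H3K4me3 was called in both siNEG lists and in neither siFLI1 list at 7 regions, of which those of FEN1, SLC6A9, PGF, CCK, MFF and MYB are described. FEN1, the flap endonuclease of DNA replication, had siNEG H3K4me3 folds of 99.0 and 73.3 at a region in its coding exon (chr11:61796091-61796729). SLC6A9, a glycine transporter, had 46.5 and 42.2 in an intron (chr1:44032043-44032775). PGF, placental growth factor, had 16.96 and 18.2 (chr14:74953263-74954160). CCK, the peptide hormone cholecystokinin and a known target of the fusion, had 12.4 and 11.01 at a region in its UTR (chr3:42265490-42266563). The siNEG values of these 4 genes lie closer together than those of MFF and MYB. MFF, a mitochondrial fission factor, had 4.18 and 79.95, and the transcription factor gene MYB had 3.89 and 57.8. Peaks of the mark remained near these 6 regions: the nearest siFLI1 H3K4me3 peaks in replicates 1 and 2 lay 94 and 73 bp from the PGF region, 130 and 114 bp from that of MFF, 259 and 410 bp from that of SLC6A9 and 227 and 763 bp from that of CCK. For FEN1 they lay 839 and 804 bp away, and for MYB 1053 and 1027 bp.

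The ab4729 H3K27ac libraries, 1 per group, did not enter the rule. A peak of the siNEG ab4729 list alone overlapped 54 lost regions (11.6%, against 3.5% of all promoter regions), and a peak of the siFLI1 list alone overlapped 34 (7.28%, against 12.6%). Both lists held 27 (5.78%, against 35.7% of all promoter regions and 5.19% of gained promoters), and neither held 352 (75.4%, against 48.1% and 64.5%). Of the 88 regions in exactly 1 of these lists, 61.4% were in the siNEG list (interval 50.4% to 71.6%), whereas this share was 22.01% at promoters in all 4 lists and 5.01% at gained promoters. The siFLI1 list was longer, with 51663 peaks against 32738. With the strongest 32738 peaks of each the share was 79.7% (63 of 79, interval 69.2% to 88.0%), 45.9% and 13.6% for the same 3 sets. Without siNEG replicate 2 in the rule it was 48.3%. With 1 library per group there is no replicate check.

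TMEM100, a transmembrane protein of endothelial and neuronal cells, had the highest ab4729 fold of the regions in the siNEG list alone, 11.8, with folds of 3.33 and 5.26 in the siNEG H3K27ac replicates (chr17:55720439-55721420, coding exon). The long non-coding RNA gene ENSG00000231188 followed with 10.7, and it kept H3K4me3, with 78.7 and 69.4 in siNEG and 52.6 and 48.5 in siFLI1. MCM10 had 8.75, EPS8L1 8.66 and RAB8A 7.91 by ab4729 in siNEG and no siFLI1 peak. AKR1C3, an aldo-keto reductase of steroid metabolism, had 8.56, and 9.30 and 5.83 in the siNEG replicates (chr10:5035204-5036230, intron). SLC39A8, a metal ion transporter, had 7.97 at a region in a UTR (chr4:102344312-102345455) that kept H3K4me3, with 8.42 and 10.3 in siNEG and 12.7 and 11.9 in siFLI1. SYNGR4, a member of the synaptogyrin family, had 7.28, and SH3GLB2, an endophilin, had 6.93. TIMP2, TEDC1 and GGACT, in contrast, were in both ab4729 lists, TIMP2 with 7.90 in siNEG and 7.63 in siFLI1. Of the 17 regions with a GGAA repeat, 5 were in the siNEG ab4729 list alone (29.4%, against 11.6% of lost regions and 3.5% of all promoter regions). These 5 include both GUCY2F regions, which share a repeat. The siFLI1 list held 0 of the 17 (exact interval up to 19.5%).

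ETS1 peaks overlapped few lost regions. They overlapped 0 and 1 of the 467 in the siNEG lists and 3 and 5 in the siFLI1 lists, which is 0% and 0.214% in siNEG and 0.642% and 1.07% in siFLI1. Gained promoters had 0.138% and 0.0692% in siNEG and 2.14% and 2.63% in siFLI1. All promoter regions had 0.973% and 0.631%, then 5.77% and 7.90%, and promoters in all 4 H3K27ac lists 2.07% and 1.40%, then 11.4% and 15.6%. The siFLI1 ETS1 lists are counted as 1 sample, because the peak names of replicate 1 carry the number 2, so no comparison of groups is made. The 8 regions, named after their values were seen, were those of RAB8A, SEPTIN6, SMIM29, SLC29A1, ENSG00000286885, AP1S3, RASAL2-AS1 and E2F8, and each kept H3K4me3 in all 4 lists. RAB8A was the region found in both siFLI1 lists, with ETS1 folds of 6.57 and 7.34.

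The share of genes with a lost region differed between gene lists, which were written with earlier results of these data known. It was 18.2% for genes raised by the fusion and 30% for HOX genes, both short lists, and 0.295% for ZNF genes. Of 11 genes raised by the fusion that had a promoter region, 2 had a lost one (CCK and PRKCB). A region in all 4 H3K27ac lists was found at 9 of these 11. Over all 13363 gene symbols nearest to a promoter region, 444 had a lost one (3.32%) and 8164 had one in all 4 lists. Of 5 genes lowered by the fusion 0 had a lost one, of 9 synaptic and neuroendocrine genes 1 (ENO2), and of 20 cell cycle genes 1 (CCNE1). The replication-dependent histone genes had 0 of 25, ribosomal protein genes 1 of 62 (RPL17), ZNF genes 1 of 339 (ZNF611) and HOX genes 3 of 10 (HOXB4, HOXC6 and HOXC8). ENO2, RPL17, ZNF611, HOXC6 and PRKCB kept H3K27ac of both siFLI1 lists at a TSS, and the nearest siFLI1 peak lay 456 bp from the lost region of ENO2, 330 bp from that of RPL17, 184 bp from that of ZNF611 and 1208 bp from that of HOXC6. These counts carry no test.

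CCK and PRKCB illustrate different losses. At CCK, within 10 kb of the gene body (chr3:42257825-42266185, minus strand), 3 of 4 H3K27ac regions were lost and 0 were in all 4 lists (4403 of all 90572 merged regions were lost, 4.86%), and the nearest siFLI1 peak to its promoter region was 75165 bp away. The promoter folds of CCK in siNEG were 4.51 and 2.71. PRKCB encodes protein kinase C beta, and its lost region lay at an internal TSS in a coding exon (chr16:24033876-24037208), with siNEG folds of 5.78 and 5.65 and no H3K4me3. Around PRKCB (chr16:23835983-24220611, plus strand) 8 of 89 regions were lost, 2 gained and 22 in all 4 lists. At another TSS PRKCB had H3K27ac folds of 13.4 and 5.81 in siNEG and 8.20 and 11.4 in siFLI1.

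Of the 3 HOX genes, which encode homeodomain factors of body patterning, HOXB4 kept H3K4me3, with 17 and 19.1 in siNEG and 17.5 and 18.7 in siFLI1. HOXC8 had 8.74 and 8.45 in siNEG, no peak in siFLI1 replicate 1 and 5.404 in replicate 2. HOXC6 had none in any list. CCNE1, the cyclin that drives entry into S phase, had H3K27ac folds of 4.31 and 4.85 at a region outside genes (chr19:29811109-29811660), and its H3K4me3 folds were 30.6 and 32.1 in siNEG and 26.2 and 29.6 in siFLI1, which do not overlap. ENO2, the neuronal enolase, kept H3K4me3 at 29.3 and 49.2 in siNEG and 30.7 and 26.2 in siFLI1, which overlap. RPL17 had no H3K4me3 at its lost region, and ZNF611 had it in siNEG replicate 2 and siFLI1 replicate 1.

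Markers of the cell type were checked at TSSs in the same lists. All 6 Ewing sarcoma markers (NKX2-2, NR0B1, CD99, PRKCB, BCL11B and STEAP1) had H3K27ac and H3K4me3 peaks in all 4 lists of each mark. Of the 6 markers of other lineages, PTPRC, CD3E, KRT5 and MYOD1 had no peak in any. The endothelial PECAM1 had H3K27ac folds of 13.6 and 8.71 in siNEG, no peak in siFLI1 replicate 1 and 3.36 in replicate 2. The epithelial EPCAM had 4.90 and 4.36 in siNEG and 3.71 and 3.70 in siFLI1. EPCAM also had an H3K4me3 peak, of fold 4.82, in siNEG replicate 1 only, and PECAM1 had none. The H3K27ac lists held 60033 to 65509 peaks and the H3K4me3 lists 18353 to 19732. The read depth of the libraries is unknown from these lists.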

How the data were processed

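Each deposited file was a peak list (narrowPeak layout) of 1 library, so replicates had not been pooled. The submitters' processing notes name cutadapt 4.4, BWA 0.7.17, Picard 2.17.11 and MACS2 2.1.1 and the builds GRCh38, hg38 and dm6, without the role of each. The control library and filters are not given in the sources used here. The deposited fold column is the authors' ratio of a peak over local background. The deposited −log10 columns give the p-value and the q-value that the authors' caller assigned, and the deposited score derives from the latter and was not used. No list was analysed here for the 8 input samples. Fold values describe peaks within a list only, and the length of a list limits what it can show, since depth is unknown.

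Peaks on chromosomes 1 to 22 and X of the 4 H3K27ac lists (not the ab4729 pair) were merged at 1 bp overlap (Python 3.11.15, pandas 2.3.3). TSSs and gene annotation came from GENCODE release 44 and sequences from hg38, with coordinates counted from 1. The value of a region in a list is the highest fold of the peaks that overlap it. CpG and GC were counted in 501 bp at the centre, and GGAA runs within 1 kb of it. Groups were compared over libraries by exact two-sided permutation tests, and shares of regions carry exact (Clopper-Pearson) 95% intervals. Named genes were the 15 lost regions highest by the lower siNEG fold, the 10 highest with H3K4me3 in all 4 lists at protein-coding genes, the 10 highest in the siNEG ab4729 list alone, those with H3K4me3 in siNEG only (1 of them is not reported here), those with a GGAA repeat (values for the 10 longest and USP13, sequences for 6), the members of the gene lists and the 5 on each side of the distance limit. Overlap and merging were tested on simulated data. No pair of H3K27ac, H3K4me3 or ETS1 replicate lists was a copy: 0 to 7 intervals per pair were identical, and 0 of them had the same fold. The members, lists and alternatives were chosen with earlier results of these data known.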

Additional observations from a re-analysis of the deposited data

How the results depend on the processing

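The number of lost promoter regions, 467, was 311 with TSSs within 500 bp, 809 within 2 kb, 280 when no siFLI1 peak was allowed within 1 kb, and 778 to 2201 when 1 H3K27ac library was left out. The ab4729 share, 61.4%, was 79.7% with equal numbers of the strongest peaks and 48.3% to 57.4% when 1 library was left out, the lowest of which (without siNEG replicate 2) put the larger part in the siFLI1 list. GGAA repeats inside the region were at 0.642% in place of 3.64%, below the 0.823% of promoters in all 4 lists. The cause was not tested. Of 75 alternatives over 8 results, 65 kept the value within the spread or the side of the test, 10 moved it, those above included, and no signed difference changed sign. The share of H3K4me3 kept ranged from 87.7% to 95.6%. With same-numbered libraries as a replicate block the H3K4me3 differences were again -2.03 and -2.06 (sign-flip p 0.5, the smallest that 2 pairs allow), and that of the fold percentiles was again -12.2. The labels do not pair the numbers, and the correlation of deviations between same-numbered libraries was 0.012. The comparison of H3K4me3 fold percentiles and its alternatives were added after seeing the data. Presence in a list depends on the caller's limit, so absence is not a measured zero.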

Other observations

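Further lost regions that kept H3K4me3 in all 4 lists are given as values. The genes were picked after their values were seen, so they carry no count or test. Over all 132 such regions, both siFLI1 folds lay below both siNEG folds at 58 (43.9%) and above both at 27 (20.5%). No gene given here is of the latter kind. ASF1B, a histone chaperone, had 2 lost regions with siNEG H3K27ac folds of 5.21 and 5.97 and of 4.35 and 4.27. Its H3K4me3 peak had 52.4 and 63.8 in siNEG and 35.9 and 38.0 in siFLI1, without overlap. GINS2, a subunit of the replicative helicase, had H3K4me3 folds of 30.0 and 31.7 in siNEG and 20.3 and 16.3 in siFLI1. RAD54L, a motor protein of homologous recombination, had 78.0 and 66.7 in siNEG and 35.1 and 30.7 in siFLI1. CDC25C, the phosphatase that opens mitosis, had 53.2 and 55.3 in siNEG and 27.1 and 32.1 in siFLI1. KIF4A, a mitotic kinesin, had 44.6 and 29.5 in siNEG and 31.9 and 37.4 in siFLI1, which overlap. E2F8, a repressor of the E2F family, had 22.8 and 31.0 in siNEG and 29.9 and 26.9 in siFLI1, which also overlap.

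The next genes were also picked after their values were seen and follow no fixed list. LGR5, a receptor for R-spondins, had H3K27ac folds of 4.21 and 3.20 and H3K4me3 folds of 36.7 and 46.8 in siNEG and 10.5 and 25.3 in siFLI1. LIN28B, which blocks maturation of let-7, had H3K27ac folds of 5.51 and 3.91 and H3K4me3 folds of 27.8 and 28.7 in siNEG and 15.9 and 27.7 in siFLI1. GLI2, STAT3 and PDGFRB had a lost region with no H3K4me3 in any list, each at a TSS far from the 5′ end of the gene, by 56660, 68467 and 30352 bp.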
